A study of Mus musculus with 29 samples.

Results

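The 10 genes described here encode molecules by which white blood cells hold on to a vessel wall, together with their partners on the white blood cell. They were listed by name and each was mapped to 1 Ensembl gene line among the 56748 gene lines of the count table. Bulk RNA sequencing was performed on the aortic arch of 29 mice, with 1 library per mouse. Ercc1Δ/- mice (labelled Ercc1 d/-), which have a deficient DNA repair endonuclease, were compared with WT (Ercc1 +/+) littermates. All mice shared an F1 hybrid background of C57BL6J and FVB and carried the alleles in every cell of the body. Mice of 6 weeks were fed ad libitum (AL), 5 WT and 5 Ercc1Δ/-. Mice of 22 weeks were fed AL, 4 WT and 4 Ercc1Δ/- after 1 WT library of 400410 counts was left out as by the study, or were kept on dietary restriction (DR), a stepwise reduction of food begun between these ages, 5 WT and 5 Ercc1Δ/-. Each group held both sexes.

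Leukocytes leave the blood in steps. Selectins on activated endothelium, such as P-selectin (Selp) and E-selectin (Sele), catch sugar-bearing ligands such as PSGL-1 (Selplg) and let the cell roll. Integrins on the leukocyte then bind immunoglobulin-family ligands on the vessel wall: alpha4 integrins (Itga4) bind VCAM1 (Vcam1), and the beta2 chain (Itgb2) pairs with alphaL (Itgal, LFA-1) or alphaM (Itgam, Mac-1) to bind ICAM1 (Icam1) and ICAM2 (Icam2). Vcam1 and Icam1 are known as genes that inflammatory cytokines induce in endothelium through NF-kB, and smooth muscle cells of a diseased wall can also make VCAM1.

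Promoter windows from RefSeq (build GRCm38.p6) were at hand for 5 of the 10 genes, namely Icam1, Sele, Selp, Itga4 and Itgam. For 4 of these the 160 bases before the start are shown, since they hold letters of the kind through which inflammatory or myeloid factors are known to act. Capitals mark GGNNNTTCC (NF-kB) in Icam1, both GGNNNTTCC and TGANTCA (AP-1) in Sele and Selp, and GAGGAA (PU.1, a myeloid factor) in Itgam, on either strand.
Icam1, chr9:21015780-21015939, plus strand: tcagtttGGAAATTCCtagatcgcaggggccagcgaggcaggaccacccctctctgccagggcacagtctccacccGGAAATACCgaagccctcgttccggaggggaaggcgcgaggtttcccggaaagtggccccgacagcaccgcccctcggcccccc
Sele, chr1:164048074-164048233, plus strand: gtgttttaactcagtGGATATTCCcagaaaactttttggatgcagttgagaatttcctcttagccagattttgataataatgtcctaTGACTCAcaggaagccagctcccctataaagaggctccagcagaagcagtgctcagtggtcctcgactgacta
Selp, chr1:164115104-164115263, plus strand: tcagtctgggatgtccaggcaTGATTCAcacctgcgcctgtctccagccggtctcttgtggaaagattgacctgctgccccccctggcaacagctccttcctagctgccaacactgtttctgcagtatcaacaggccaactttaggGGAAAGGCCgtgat
Itgam, chr7:128062480-128062639, plus strand: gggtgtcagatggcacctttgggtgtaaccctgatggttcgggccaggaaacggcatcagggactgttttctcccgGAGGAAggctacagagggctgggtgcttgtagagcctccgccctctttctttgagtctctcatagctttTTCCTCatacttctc
Over windows running from 250 bases before the start to 50 bases after it, the NF-kB letters were held by 18.5% of all 32851 promoter windows, the AP-1 letters by 7.8% and the PU.1 letters by 28.3%. The NF-kB letters began 153 and 84 bases before the start of Icam1, 145 before that of Sele and 14 before that of Selp. GAGGAA was also held by Sele, within the stretch shown but not in capitals, and the IRF motif, an interferon response element held by 3.4% of windows, was in none of the 5. Itga4 held none of the 4 motifs in this window. These matches describe the letters only.

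Gene totals ranged from 921167 to 9616382 counts over the 28 libraries used, with a median of 3256708. The 4 AL-fed Ercc1Δ/- libraries of 22 weeks, the largest of which held 3855444 counts, were all shallower than the 4 WT libraries of that age and diet, the smallest of which held 3903589. The same held on DR, where the largest Ercc1Δ/- library held 2572523 counts and the smallest WT library 2660422. Ercc1 itself was lower in Ercc1Δ/- than in WT mice at 6 weeks (log2 fold change -1.41), at 22 weeks on AL (-0.97) and on DR (-1.01), with adjusted p between 0.00032 and 0.00271 by edgeR. Values are given as normalized counts, that is, counts scaled to a common library size of 3683502. Smooth muscle markers summed to 137900 or more in every WT mouse and endothelial markers to 2145 or more in every mouse, so both cell types of a vessel wall were present. In 1 Ercc1Δ/- mouse on DR, mouse 016, pan-leukocyte markers summed to 1257, while the median of its group was 381.2, and the leukocyte partners stood apart too, so results for members and gene lists that include this mouse are given with and without it. In bulk tissue, fewer cells of a type and less RNA per cell cannot be told apart.

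On the GRCm39 build of the count table, Vcam1 lies at chr3:115903598-115923355 on the minus strand and Icam1 at chr9:20926672-20940113 on the plus strand. Reads were counted over whole genes. The other genes that overlap a member on the annotation held 12 counts or fewer over all mice, except Cerkl. Cerkl overlaps Itga4 on the opposite strand with 539 counts. Reads within an overlap could be set aside as ambiguous, for genes on opposite strands only if counting ignored strand. Gm49368 shares exons with Itgam on the same strand and held 0 counts. Itgam could therefore be undercounted there whatever the strand setting.

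Levels differed widely among the 10 genes. Per kilobase of the canonical transcript, Vcam1 was highest with a mean level of 130.4 normalized counts over all 28 mice, followed by Icam1 at 37.99, Itgb2 at 23.96 and Selp at 15.4. Icam2 (9.425), Selplg (9.068), Itgam (6.625) and Itga4 (4.845) were lower on this scale. The order depends on the transcript length taken, which was 6.45 kb for Icam2, although reads were counted over whole genes. Before division by length, the mean of Icam2 (60.81) lay above that of Selp (52.93). Other transcript lengths were not tried. The level per kilobase was 1.239 for Itgal and 0.8155 for Sele, with 175 and 82 reads in all 28 mice together. Both fell under the filter, which asked for more than 10 counts in more than 10 mice, and 8 of the 10 genes were tested among 12353.

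The first question was whether the aorta of repair-deficient mice differed from WT at 6 weeks. Vcam1 measured 208.4, 261.9, 299.1, 323.2 and 337.5 normalized counts in the 5 WT mice and 237.8, 318.4, 421.3, 494.4 and 514.9 in the 5 Ercc1Δ/- mice. The groups overlapped, with 3 of the Ercc1Δ/- mice above every WT mouse. No member was called at 6 weeks (edgeR quasi-likelihood test with sex as covariate, adjusted p of at most 0.05 over all genes tested and at least 1.2-fold), where 1.7% of all genes were called. All 8 estimates lay above 0, from 0.27 for Itga4 to 0.83 for Selplg on the log2 scale, and 1 of the 8, Vcam1, had an unadjusted p under 0.05, as did 12.8% of all genes (log2 fold change 0.49 ± 0.18 SE, adjusted p = 0.22). DESeq2 also called none of the members.

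At 22 weeks on AL, Vcam1 and its neighbour in function Icam1 were higher in Ercc1Δ/- mice, as were the beta2 integrin chain, its alphaM partner and PSGL-1. Of the 8 members tested, 5 were called and all 5 were higher, where 12% of all genes were called and 5.88% were called higher. The median log2 fold change of the 8 members was 1.17, while that of all genes tested was 0.03.

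Vcam1 measured 249.3, 297.7, 327.9 and 377.7 normalized counts in WT mice and 904.1, 1090, 1122 and 1199 in Ercc1Δ/- mice. The groups were far apart, since the lowest Ercc1Δ/- mouse stood well above the highest WT mouse. The fitted change of Vcam1 was 3.35-fold (log2 1.74 ± 0.20 SE, adjusted p = 1.96e-05 by edgeR). The WT library left out, with 31 reads of Vcam1, measured 310.5 and lay within the range of its group. Icam1 measured 102.7 to 117.9 in WT mice and 153.5, 159.3, 219.1 and 222.8 in Ercc1Δ/- mice, again without overlap. Its fitted change was 1.65-fold (log2 0.73 ± 0.16 SE, adjusted p = 0.00404 by edgeR).

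Over all 6 groups, Vcam1 was lowest in WT mice on DR (236.2 ± 56.2, SD, n = 5), followed by WT mice of 6 weeks (286 ± 52.0, SD, n = 5) and of 22 weeks on AL (313.2 ± 53.9, SD, n = 4), Ercc1Δ/- mice of 6 weeks (397.4 ± 117.8, SD, n = 5), Ercc1Δ/- mice on DR (507.5 ± 100.4, SD, n = 5) and AL-fed Ercc1Δ/- mice of 22 weeks (1079 ± 125.1, SD, n = 4). Each group overlapped the next in this order except the last.

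**Figure D1:**
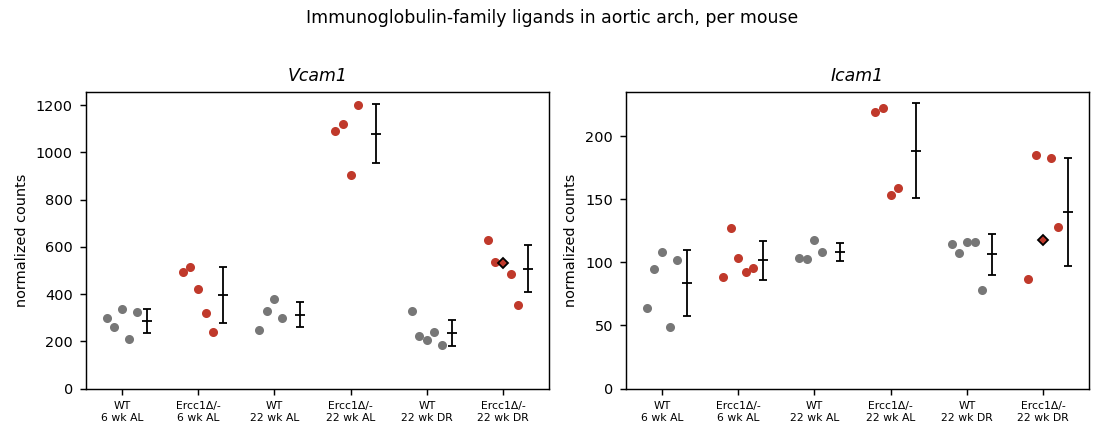
Normalized counts (vertical axis, linear from 0) of Vcam1 and Icam1 in each mouse of the 6 groups (horizontal axis), with the group mean and SD beside the points and mouse 016 as a diamond. The 4 AL-fed Ercc1Δ/- mice of 22 weeks sit between 904.1 and 1199 for Vcam1, above all other mice, and those on DR sit between 354.4 and 630.6.

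Among the leukocyte partners, Itgb2, the shared chain of LFA-1 and Mac-1, measured 21.34, 27.34, 30.4 and 31.62 in WT mice and 55.81, 69.68, 99.2 and 141.8 in Ercc1Δ/- mice. All 4 Ercc1Δ/- mice were above all 4 WT mice, but they spread over a wider range. The fitted change of Itgb2 was 3.47-fold (log2 1.80 ± 0.36 SE, adjusted p = 0.00315 by edgeR). Itgam, the alpha chain of Mac-1 that monocytes, macrophages and neutrophils carry, measured 2.911 to 13.67 in WT mice and 19.53 to 52.54 in Ercc1Δ/- mice. It rose 4.74-fold (log2 2.25 ± 0.45 SE, adjusted p = 0.00199 by edgeR), on raw counts of 3 to 24 in WT mice and 7 to 50 in Ercc1Δ/- mice. Selplg was also called (log2 1.61 ± 0.47 SE, adjusted p = 0.0276 by edgeR), although the lowest Ercc1Δ/- mouse, at 11.16, fell below the highest WT mouse, at 12.44. The Selplg call was lost in 2 of the 8 fits that left out 1 mouse.

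The 3 members tested but not called at 22 weeks were Icam2, which resting endothelium carries, Selp, which endothelium and platelets store, and Itga4, the alpha chain that binds VCAM1. Icam2 changed by -0.39 on the log2 scale (95% interval -1.24 to 0.46, adjusted p = 0.582 by edgeR). Selp gave 0.29 (interval -0.65 to 1.22) and Itga4 0.30 (interval -0.15 to 0.75). These intervals include changes of more than 1.2-fold in either direction for Icam2 and Selp. Itga4 measured 20.37 to 38.45 in WT and 36.98 to 51.48 in Ercc1Δ/- mice, with overlapping ranges. For the untested Sele and Itgal, the Ercc1Δ/- means were 6.207 ± 4.63 and 10.28 ± 5.46 (SD, n = 4), with WT means of 2.09 ± 2.67 and 5.891 ± 3.72 (SD, n = 4), and the ranges overlapped.

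Depth touched these calls. When every library was thinned to 921167 counts, Vcam1 was called at 22 weeks in all 10 further draws, while the number of members called ranged from 1 to 4. Calls also fell among all genes, to between 763 and 837 of 12353 in these draws, from 1487 without thinning.

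**Figure D2:**
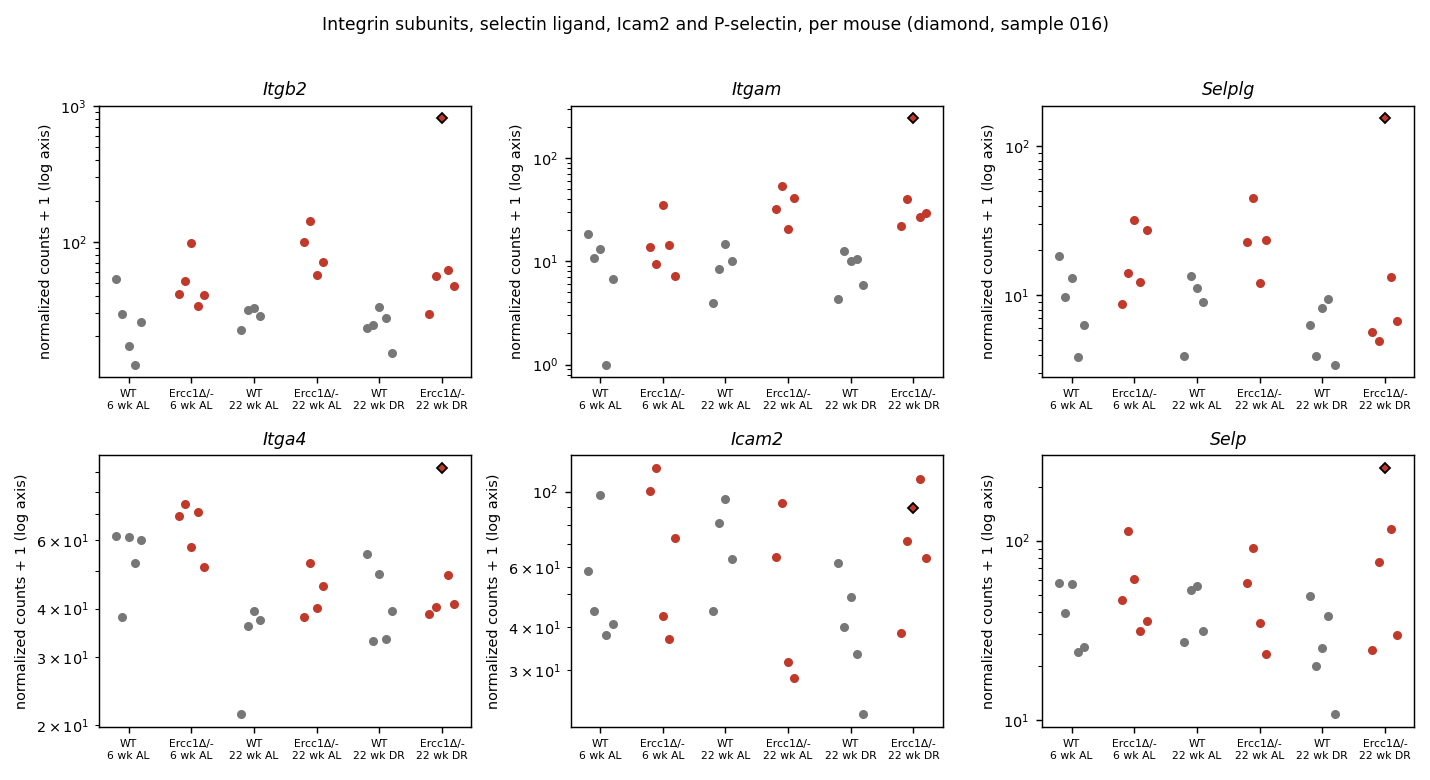
Normalized counts plus 1 (vertical axes, log scale) of Itgb2, Itgam, Selplg, Itga4, Icam2 and Selp in each mouse of the 6 groups (horizontal axes), with mouse 016 as a diamond. Mouse 016 reaches 815.7 for Itgb2 and 244.7 for Itgam before 1 is added, above every other mouse.

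From 6 to 22 weeks on AL, Vcam1 and Icam1 rose in Ercc1Δ/- mice. These 2 of the 8 members were called, both higher, where 4.69% of all genes were called and 2.11% were called higher. Vcam1 rose 2.66-fold (log2 1.41 ± 0.18 SE, adjusted p = 9.18e-05 by edgeR) and Icam1 rose 1.82-fold (log2 0.86 ± 0.15 SE, adjusted p = 0.00113 by edgeR), and neither overlapped between the ages. Itgam (log2 1.47 ± 0.43 SE, adjusted p = 0.0519) and Itgb2 (log2 0.95 ± 0.34 SE, adjusted p = 0.135) had estimates above 0 and missed the threshold. Without mouse 015, the Ercc1Δ/- mouse of 6 weeks with the highest Itgb2 (97.22) and Itgam (34.03), 4 members were called. The share of all genes called in that fit is not given here. Itga4 had an estimate of -0.62 in Ercc1Δ/- mice (adjusted p = 0.0821) and of -0.66 in WT mice (adjusted p = 0.173).

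In WT mice over the same ages no member was called, where 0.235% of all genes were called, and Vcam1 changed by 0.16 on the log2 scale (95% interval -0.24 to 0.55). By edgeR 2 of the 8 members had an unadjusted p under 0.05, Icam1 (estimate 0.42) and Itga4, as did 8.64% of all genes, and DESeq2 called no member. The difference between the genotypes in the change with age was tested as an interaction. Vcam1 was called, the single member among the 8, where 0.842% of all genes were called, and its change with age was 1.26 larger on a log2 scale in repair-deficient mice (± 0.26 SE, adjusted p = 0.0264 by edgeR). The Vcam1 interaction was lost without the filter on low counts (adjusted p = 0.114), was called in 3 of 10 thinned draws and was lost in 10 of the 18 fits that left out 1 mouse, among them those without WT mice 001, 009, 011, 012, 018, 024 and 025 and without Ercc1Δ/- mice 004, 005 and 026, with estimates from 1.14 to 1.37 throughout.

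The next question was what DR did at 22 weeks. In Ercc1Δ/- mice Vcam1 was lower on DR, and it was the single member called of the 8, where 1.64% of all genes were called and 0.988% were called lower. Vcam1 measured 354.4, 486.9, 530.2, 535.3 and 630.6 normalized counts on DR, below each of the 4 AL-fed mice. The fitted level on DR was 0.469 of that on AL (log2 -1.09 ± 0.17 SE, adjusted p = 0.00493 by edgeR), and without mouse 016 the change was -1.11 (adjusted p = 0.00777). Icam1 measured 87.07 to 185 on DR and 153.5 to 222.8 on AL, and the groups overlapped (log2 -0.41 ± 0.15 SE, adjusted p = 0.182 by edgeR, and -0.39 with adjusted p = 0.242 without mouse 016). Without this mouse the estimate of Icam2 went from 0.47 to 0.37 and that of Selp from 0.94 to 0.26.

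The direction of the leukocyte partners on DR turned on mouse 016. In this mouse Itgb2 measured 815.7, while the other 4 measured 28.24 to 61.37, and Selplg measured 153.5, while the others measured 3.936 to 12.27. With mouse 016 the change of Itgb2 on DR was 0.90 on the log2 scale (adjusted p = 0.689 by edgeR), and without it -0.93 ± 0.22 SE (adjusted p = 0.0305), so that 2 members were then called lower, where 1.66% of all genes were called and 1.08% were called lower. Selplg went from 0.33 to -1.67 (adjusted p = 0.052 without this mouse), Itgam from 0.73 to -0.39 and Itga4 from 0.24 to -0.03. Vcam1, at 530.2, and Icam1, at 117.6, did not stand apart in mouse 016.

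In WT mice DR gave no call among the members, where 1.28% of all genes were called, and the Vcam1 estimate was -0.41 (± 0.17 SE, adjusted p = 0.316 by edgeR). By edgeR 2 of the 8 members, Vcam1 and Icam2, had an unadjusted p under 0.05, as did 12.8% of all genes, and DESeq2 called none. Leaving out WT mouse 007 of the DR group gave 2 calls among the members, and the share of all genes called in that fit is not given here. The effect of DR was not shown to differ between the genotypes for any member, where 0.0971% of all genes passed the interaction test. The interaction estimate of Vcam1 was -0.68 (95% interval -1.20 to -0.16, adjusted p = 0.427 by edgeR), and without mouse 016 it was -0.70 (adjusted p = 0.484). By edgeR 2 members, Vcam1 and Icam2, had an unadjusted p under 0.05, as did 8.72% of all genes, with none called by DESeq2.

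On DR the genotypes still differed, again with every Ercc1Δ/- library shallower than every WT library. Vcam1, Itgb2 and Itgam were called, all 3 higher in Ercc1Δ/- mice, where 13% of all genes were called and 5.97% were called higher. Vcam1 measured 184.3, 205.7, 222.1, 238.6 and 330.1 in the 5 WT mice on DR, all below the lowest Ercc1Δ/- mouse on DR at 354.4. It was 2.14-fold higher in Ercc1Δ/- mice (log2 1.096 ± 0.17 SE, adjusted p = 0.000331 by edgeR), and without mouse 016 the change was 1.08 (adjusted p = 0.00138). For Itgb2 the change was 3.04 (adjusted p = 0.0357) and without mouse 016 it was 1.00 ± 0.24 SE (adjusted p = 0.00789). For Itgam the change was 3.25 (adjusted p = 0.0123) and without mouse 016 it was 1.93 ± 0.40 SE (adjusted p = 0.00228). The same 3 members were called without mouse 016, where 4.37% of all genes were called higher. The call of Itgb2 was lost in 4 of the 10 fits that left out 1 mouse, those without WT mouse 007, 010, 021 or 028. Members not called went from 0.39 to 0.41 for Icam1, from 0.87 to 0.76 for Icam2, from 1.86 to 1.04 for Selp, from 2.71 to 0.45 for Selplg and from 0.28 to -0.02 for Itga4 without mouse 016. The count of members called was 1 when only the 2 groups entered the fit and 5 when all 6 groups did, and it was 2 without WT mouse 010, 021 or 028 and 5 without WT mouse 007 or Ercc1Δ/- mouse 006. The shares of all genes called in these fits are not given here, so the shifts may not be particular to the members.

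**Figure D3:**
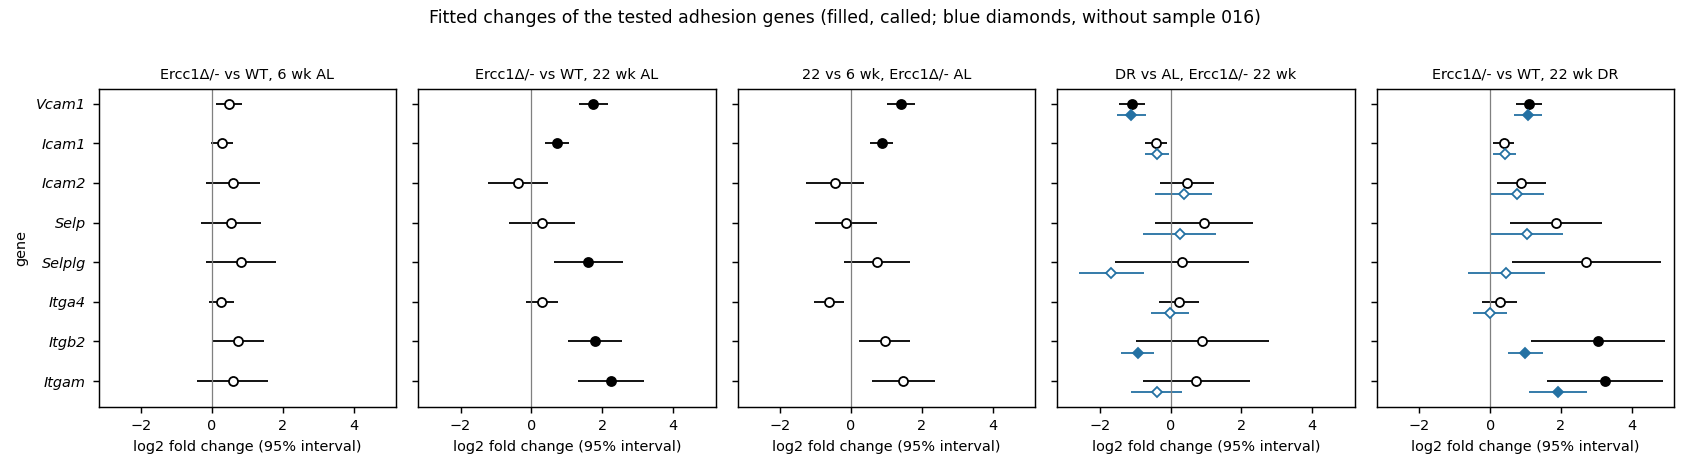
Log2 fold change (horizontal axes) with its 95% interval for the 8 tested members (vertical axis) in 5 comparisons, with filled symbols for called genes and blue diamonds for fits without mouse 016. Vcam1 is filled in 4 of the 5 panels, and the Itgb2 estimate on DR against AL moves from 0.90 to -0.93 without mouse 016.

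Vcam1 was then set against each of the other 9 members within each mouse, as the log2 ratio of its counts to theirs with 0.5 counts added. At 22 weeks on AL the ratio of Vcam1 to Icam1 was higher in Ercc1Δ/- than in WT mice by 1.01, that to Icam2 by 2.31, that to Selp by 1.60 and that to Itga4 by 1.36, each without overlap between the groups. An exact two-sided permutation test of 4 against 4 mice gave p = 0.0286 for each, the smallest it can give, and an adjusted p of 0.0643 over the 9 ratios. Sex did not enter the ratio tests, and these groups held 3 male and 1 female WT and 2 male and 2 female Ercc1Δ/- mice. Against Itgb2 the difference was 0.16, against Itgam -0.35 and against Selplg 0.28, all with overlapping ranges. With age in Ercc1Δ/- mice the ratios to Icam2 (1.98), Selp (1.67) and Itga4 (2.05) passed (exact permutation p = 0.00794, the smallest possible, adjusted p = 0.0238), while that to Icam1 (0.61, adjusted p = 0.0714) did not. On DR the difference from AL in the ratio of Vcam1 to Itga4 was -1.28 (exact permutation p = 0.0159, adjusted p = 0.107), and none of the 9 passed. Without mouse 016 the difference for Itga4 was -1.07 (exact permutation p = 0.0286, adjusted p = 0.171), and again none passed.

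Within groups, Vcam1 and the leukocyte partners were compared over the 28 mice after each group mean was subtracted, in 15 pairs. Itgb2 ran with Itgam (Pearson r = 0.816, permutation p = 4e-05, adjusted 0.000375, Spearman rho = 0.725, permutation p = 0.00045, adjusted 0.00337) and with Itgal (r = 0.717, permutation p = 5e-05, adjusted 0.000375, rho = 0.74, permutation p = 0.0001, adjusted 0.0015), and r was 0.724 and 0.595 without the 2 mice farthest from the median. None of the 13 pairs with Vcam1 passed. The nearest was Selp (r = 0.473, permutation p = 0.0194, adjusted 0.0971, rho = 0.465, permutation p = 0.0233, adjusted 0.111, and r = 0.666 without the 2 farthest mice), and for Vcam1 and the macrophage markers r was -0.0138 (permutation p = 0.957) and rho -0.0383 (permutation p = 0.864).

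As a description across the 28 mice, which share the groups and so their differences, the genes whose log2 level ran most like Vcam1 were Tmem176a (r = 0.936), Tmem176b (0.917), the chemokine Cx3cl1 (0.869), Tm4sf1 (0.851) and Fxyd5 (0.848). Those most like Itgb2 were Laptm5 (0.918), Adgre1 (0.906), Lyz2 (0.899), Itgam (0.89) and Dock2 (0.884), of which Adgre1 and Lyz2 are macrophage genes. Without mouse 016, over 27 mice, Mpeg1 (0.866), which is on the macrophage list, took the place of Tm4sf1 among the 5 genes most like Vcam1. The 5 most like Itgb2 were then Laptm5 (0.914), Usp18 (0.894), Irf7 (0.881), Lyz2 (0.872) and Lilrb4b (0.858), without Adgre1.

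Markers of cell types were counted beside the members, with 5.88% of all genes called higher and 6.16% called lower at 22 weeks on AL. At 22 weeks on AL, 9 of the 9 pan-leukocyte markers tested were higher in Ercc1Δ/- mice, among them Coro1a (log2 1.51), Laptm5 (1.96) and Arhgdib (1.09). The pan-leukocyte sum ran from 241.6 to 371.7 in WT and from 558.1 to 1062 in Ercc1Δ/- mice. Of 13 macrophage markers tested, 10 were higher, led by Mpeg1 (2.29), Lgals3 (1.89) and Cd68 (2.09), and 1, Mertk (-0.51), was lower, with sums from 1634 to 2217 in WT and from 2969 to 4925 in Ercc1Δ/- mice. Their part in the change of Itgb2, Itgam and Selplg was not tested. With age in Ercc1Δ/- mice 2.11% of all genes were called higher. Among the markers, 5 pan-leukocyte ones were higher with age, led by Coro1a (1.11), Laptm5 (1.16) and Cd53 (1.33). Of the macrophage markers 7 were higher, led by Lgals3 (1.60), Mpeg1 (1.70) and Cd68 (1.29). On DR in Ercc1Δ/- mice 6 macrophage markers were lower, beside 0.988% of all genes, led by C1qa (-0.99), C1qb (-0.98) and C1qc (-0.92). The 2 pan-leukocyte markers that were lower were Lcp1 (-1.39) and Coro1a (-1.40). Without mouse 016 these counts were 8 and 3, where 1.08% of all genes were called lower. With all mice, the estimates of Itgb2, Itgam and Selplg for DR against AL lay above 0 and were not called. Without mouse 016 they were -0.93, -0.39 and -1.67, and of these Itgb2 alone was called, lower (adjusted p = 0.0305 by edgeR). On DR, where 5.97% of all genes were called higher, 5 pan-leukocyte and 6 macrophage markers were higher in Ercc1Δ/- than in WT mice. Of either list 0 were lower. Without mouse 016, where 4.37% of all genes were called higher, 3 and 6 were higher.

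No marker of T cells, B cells or neutrophils passed the filter, which asked for more than 10 counts in more than 10 mice. A marker high in few mice could therefore not pass. The neutrophil genes Ly6g, Mpo and Camp had 0 reads in all 28 mice, while Csf3r, the highest of that list, had 154. At 22 weeks on AL the T cell sums ran from 9.702 to 19.65 in WT and from 29.86 to 57.79 in Ercc1Δ/- mice, the B cell sums from 3.881 to 10.63 and from 16.74 to 27.32, and the neutrophil sums from 3.798 to 11.96 and from 8.371 to 16.81. Among Ercc1Δ/- mice on DR the highest sums were 55.91 for T cells, 76.77 for B cells and 69.57 for neutrophils. The medians of that group were 13.34, 9.546 and 3.936. Neither of the 2 platelet markers tested was called. Of 14 endothelial markers, 1 was higher, Emcn (0.97), and their sums overlapped, at 3790 to 5402 in WT and 3111 to 5079 in Ercc1Δ/- mice. On DR, where 5.97% of all genes were called higher, 6 of the 14 endothelial markers were higher in Ercc1Δ/- than in WT mice. Without mouse 016, where 4.37% of all genes were called higher, 4 were. Of 10 smooth muscle markers, 9 were lower at 22 weeks on AL, among them Cnn1 (-0.77), Smtn (-0.93) and Myh11 (-0.96), and 4 of 10 fibroblast markers were lower, among them Serpinf1 (-0.59), Col1a2 (-0.67) and Pi16 (-0.74), while 0 of 10 fat markers were called. With age in Ercc1Δ/- mice, where 2.57% of all genes were called lower, 4 fibroblast markers were lower, led by Col1a2 (-1.53), Col1a1 (-1.85) and Serpinf1 (-0.82), and 1 smooth muscle marker, Cnn1 (-0.46). On DR in Ercc1Δ/- mice, where 0.648% of all genes were called higher, 1 smooth muscle marker was higher, Synpo2 (0.51, and 0.50 without mouse 016). Between the genotypes on DR, 10 of 10 smooth muscle markers were lower in Ercc1Δ/- mice, and 4 of 10 fibroblast markers were lower and 1 higher. Of all genes, 7.03% were called lower and 5.97% higher. Without mouse 016, 9 smooth muscle markers were lower, and 2 fibroblast markers were lower and 0 higher. Of all genes, 5.94% were then called lower and 4.37% higher.

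**Figure D4:**
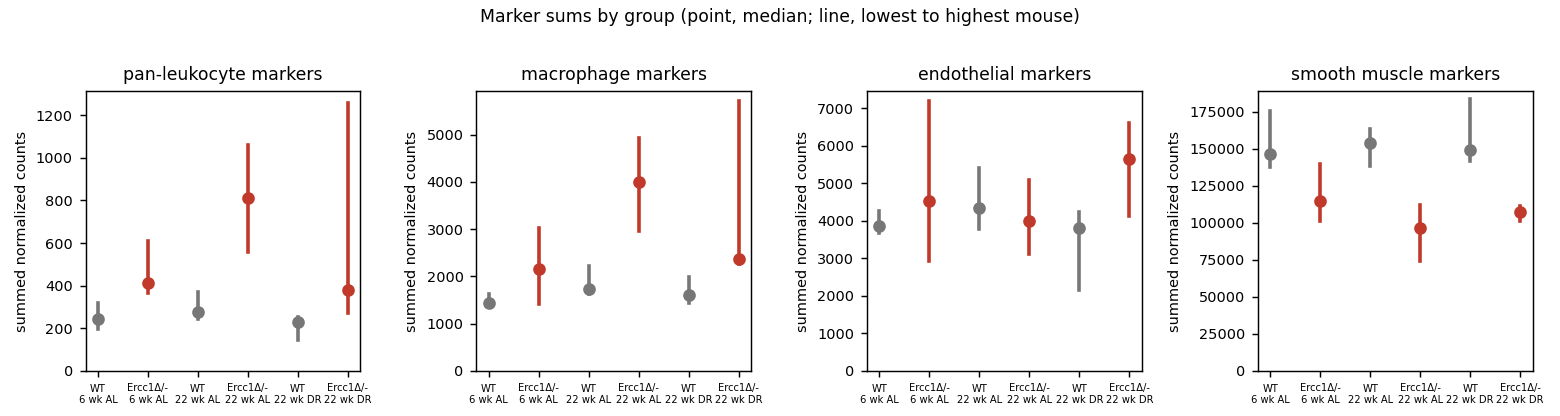
Summed normalized counts (vertical axes, linear from 0) of pan-leukocyte, macrophage, endothelial and smooth muscle markers in the 6 groups (horizontal axes), with the median as a point and a line from the lowest to the highest mouse. The macrophage sums of AL-fed mice at 22 weeks run from 1634 to 2217 in WT and from 2969 to 4925 in Ercc1Δ/- mice, while the endothelial sums overlap.

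The wider adhesion pathway was followed through 6 lists, beside 5.88% of all genes called higher and 6.16% called lower at 22 weeks on AL. Of 22 tested genes of the cytokine input to adhesion molecules, 6 were higher in Ercc1Δ/- mice at 22 weeks on AL and 0 were lower, with a median log2 fold change of 0.12. They included the IL-4 receptor chain Il4ra (0.91 ± 0.16 SE), the TNF receptor Tnfrsf1b (1.02 ± 0.21 SE) and the interferon-gamma receptor chain Ifngr1 (0.39 ± 0.10 SE). With age in Ercc1Δ/- mice Il4ra (0.89), Tnfrsf1b (0.88) and the NF-kB inhibitor Nfkbie (1.25) were higher. On DR in Ercc1Δ/- mice, where 0.988% of all genes were called lower, Tnfrsf1b (-0.71) and Ifngr2 (-0.51) were lower. Without mouse 016 neither direction had a call, where 1.66% of all genes were called. The estimates changed little without this mouse, at -0.72 for Tnfrsf1b (adjusted p = 0.057 by edgeR) and -0.51 for Ifngr2 (adjusted p = 0.0677).

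Of 14 tested genes that switch integrins on from inside the cell, 3 were higher and 4 lower at 22 weeks on AL. The higher ones were Fermt3 (kindlin-3, 1.098) and Apbb1ip (RIAM, 0.90), both known from blood cells, and Rap1b (0.33), and the lower ones included Rasgrp2 (-0.84), Tln1 (talin-1, -0.63) and Fermt2 (kindlin-2, -0.50). Of 13 selectins, selectin ligands and sugar transferases, 3 were higher, the sialyltransferase St3gal4 (0.45), Cd34 (0.45) and Gcnt1 (1.37), which builds the core on which selectin ligands are made. Of 13 other integrin subunits listed, 8 were tested, and bulk RNA does not show which cells carry them. Of these 8, Itga9 (-0.998) and Itga5 (-0.50) were lower, and Itga9 (-0.67) was also lower with age in Ercc1Δ/- mice. Of 13 junctional molecules of transmigration, 1 was lower, Mcam (-1.21), which was higher on DR in Ercc1Δ/- mice (0.41, and 0.42 without mouse 016). Of 14 genes of shedding and linkage to the cytoskeleton, the protease Adam8 was higher (2.78 ± 0.34 SE, adjusted p = 1.17e-05 by edgeR), and 4 were lower, among them Vasp (-0.75) and Actn1 (-0.81), and Adam8 (1.40) was also higher with age in Ercc1Δ/- mice.

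Between the genotypes on DR, 5.97% of all genes were called higher and 7.03% lower, and without mouse 016 these shares were 4.37% and 5.94%. Of 13 junctional molecules, 7 were higher in Ercc1Δ/- mice and 1, Mcam (-0.87), was lower, with 6 and 1 without mouse 016, where Mcam gave -0.86. Of these junctional molecules Pecam1, Cdh5, Esam and Cldn5 also stand on the endothelial list. Of 8 other integrin subunits 1 was higher and 4 lower, as without mouse 016, and of 14 genes of shedding and linkage 1 was higher and 4 lower, as without it. Of 14 integrin activation genes 2 were higher and 3 lower (1 and 2 without mouse 016), of 13 selectins, ligands and sugar transferases 4 were higher and 1 lower (4 and 1), and of 22 cytokine input genes 5 were higher and 0 lower (2 and 0).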

How the data were processed

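Aortic arch RNA of 29 mice was sequenced with a directional kit. According to the study's methods and processing notes, the authors handled molecular identifiers with UMI-tools 1.1.2, trimmed reads with fastp, aligned them with STAR 2.7.10a to GRCm39 (Ensembl 107 annotation) and counted them over whole genes with HTSeq 2.0.2, and they tested with DESeq2 1.34.0. The strand setting of the counting is not given in the sources used here. The deposited values are raw counts per gene. Each mouse was 1 sample, grouped by the labels. The 5 lines of unassigned reads were left out, and 8.906% to 11.86% of reads had been assigned to no gene or were ambiguous.

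Testing covered the 12353 genes that exceeded 10 counts in over 10 of the 28 mice, and was done in R 4.3.3 with edgeR 4.0.16, a quasi-likelihood fit with TMM factors on group and sex, over AL-fed mice for age and genotype and over mice of 22 weeks for diet. A gene was called at a p, adjusted by Benjamini-Hochberg over all tested genes, no greater than 0.05 together with a 1.2-fold change or more, and for interactions the adjusted p alone. SE was taken from the estimate and its F value. Normalized counts use library sizes and TMM factors over the tested genes. Correlations used 100000 permutations. The members and lists were chosen with earlier results of these data known. All 10 members are named. From each list up to 3 called genes of smallest p are named in each of 3 comparisons (genotype at 22 weeks on AL, age and diet in Ercc1Δ/- mice), with markers at 0 reads, and the 5 genes most like Vcam1 and most like Itgb2. Mertk, Fermt3, Apbb1ip, Rap1b and Csf3r fall outside this rule and were named after their values were seen. Alternatives were DESeq2 1.42.0, RLE factors, no filter, the WT library added back, no sex term, other sets of groups, thinning and leaving out each mouse. Scripts were tested on simulated data.

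These choices were made after values had been seen. Thinning was first run with the tool's own routine, whose scatter was 1.41 to 8.87 times sampling error, and was replaced by binomial draws (0.97 to 1.02 times). Levels, ratios and correlations were first scaled over every gene line and then over the tested genes, the set the tests use. Gene lists, ratios and likeness were recomputed without mouse 016.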

Additional observations from a re-analysis of the deposited data

Results flagged for a closer look

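In 60 sets of a member's values within a group, 9 held a sample far from the others of its group by Dixon's criterion. Chance passes its cutoffs in about 5% of independent sets of normally distributed values. Low counts are not distributed so and the 60 sets share mice, so the 9 cannot be judged against that share. Of these, 5 were mouse 016 of the Ercc1Δ/- group on DR, with normalized counts of 153.5 for Selplg (nearest other mouse 12.27), 91.16 for Itga4 (47.73), 28.79 for Itgal (5.455), 815.7 for Itgb2 (61.37) and 244.7 for Itgam (39.36). Another 2 were mouse 015 of the Ercc1Δ/- group of 6 weeks, with 97.22 for Itgb2 (50.28) and 34.03 for Itgam (13.5). The last were a low Icam1 value of 77.87 in WT mouse 028 on DR (107.4) and a high Itgal value of 9.591 in WT mouse 021 on DR (2.604). The change of Vcam1 with age differed between the genotypes by an interaction test, by 1.26 on the log2 scale. This call was lost in 10 of the 18 fits that left out 1 mouse and without the filter on low counts. It was made in 3 of 10 thinned draws.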

How the results depend on the processing

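Of 550 member log2 fold changes under alternatives other than leaving out a mouse, 523 kept direction and call, 11 reversed, 12 lost a call and 4 gained one, and of 800 under leaving out 1 mouse, 743 kept both, 30 reversed, 16 lost and 11 gained a call. The adjusted p of Itgb2 for genotype on DR was NA by DESeq2 and was not counted. The count of members called for genotype by age fell from 1 to 0 without the filter on low counts and to 0 when thinned. For genotype at 22 weeks on AL the members called went from 5 to 3 with all 6 groups in 1 fit and to 2 when thinned, and for genotype on DR from 3 to 5 with all 6 groups, to 1 when thinned and to 1 with only the 2 groups compared. Shares of all genes called in these same fits are not given here. Itga4 for genotype by age became 0 without the filter and -0.04 with the WT library added back. When thinned, estimates that reversed were, for age in WT, Selp (-0.46), Selplg (0.62) and Itgb2 (0.41), for genotype by age Selp (0.14), Selplg (-0.58) and Itga4 (-0.06), for diet in WT Itgam (0.12), and for genotype by diet Icam1 (0.04) and Itga4 (0.12). The cause was not tested for any of these.

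The values above come from 1 thinned draw. Over 10 further draws the members called ranged from 1 to 4 for genotype at 22 weeks on AL, from 1 to 2 for age in Ercc1, from 0 to 1 for genotype by age and from 1 to 3 for genotype on DR, and the thinning routine that was run first gave 1, 1, 0 and 3. Over all genes the 10 draws called 763 to 837, 317 to 362, 47 to 70 and 956 to 1038. Without thinning these were 1487, 579, 104 and 1605, and the first routine called 317, 113, 17 and 342. With scaling over every gene line, the fifth gene most like Vcam1 was Mpeg1 (0.831) in place of Tm4sf1.

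Leaving out 1 mouse gave ranges of members called of 4 to 5 for genotype at 22 weeks on AL, 2 to 4 for age in Ercc1, 0 to 1 for genotype by age, 1 to 2 for diet in Ercc1, 0 to 2 for diet in WT and 2 to 5 for genotype on DR. These ranges stand without the shares of all genes called in each fit, so they may not be particular to the members. Vcam1 ratios passing with age in Ercc1 went from 3 to 0 in every such fit, where fewer mice raise the smallest p the test can give. Ranges that crossed 0 were, for age in WT, Selp (-0.25 to 0.51), Selplg (-0.47 to 0.52), Itgb2 (-0.27 to 0.33) and Itgam (-0.48 to 0.31), for age in Ercc1 Selp (-0.5 to 0.33), for genotype at 22 weeks Selp (-0.07 to 0.45), for genotype by age Selp (-0.69 to 0.22) and Itga4 (-0.08 to 0.16), for diet in Ercc1 Selplg (-1.67 to 0.87), Itga4 (-0.03 to 0.37), Itgb2 (-0.93 to 1.35) and Itgam (-0.39 to 1.15), for diet in WT Itgam (-0.46 to 0.05), for genotype on DR Itga4 (-0.02 to 0.41), and for genotype by diet Selplg (-0.81 to 1.67), Itga4 (-0.36 to 0.06), Itgb2 (-0.57 to 1.64) and Itgam (-0.1 to 1.41). No paired analysis was possible because each mouse gave 1 sample and no sample number is shared between groups. Counts of 24 or fewer reads in WT mice limit Itgam, and 175 and 82 reads in all left Itgal and Sele untested.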
